A study of Sus scrofa with 12 samples.

Results

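S100A4 alone was set against PDGF-BB alone in cultured smooth muscle cells of porcine coronary artery. The comparison took 6 of the 12 RNA sequencing libraries of the study, 3 for each protein, paired by replicate number. Its members were the genes with at least 10 counts in 3 or more of those 6 libraries, which left 12147 of 21153 genes in the deposited table. Of these, 11428 had that count in all 6 libraries and 227 in exactly 3, and 316 genes with it in only 2 were left out. The rule used no difference between the groups.

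The primary cells are labelled as differentiated and contractile and were used at passages 6 to 11. Cells of every group, controls included, were grown in 10% fetal calf serum for 24 h before treatment. The S100A4 group then received S100A4 at 1 µg/ml, the PDGF-BB group received PDGF-BB at 30 ng/ml, both for 4 h. Control cells and cells given both proteins at the same doses, 3 libraries each, were used for side-by-side values and to share the estimate of spread. Per the design text the cells came from 3 different animals. It calls the protein oS100A4, with no explanation of the prefix. The 2 proteins were given at 1 dose each, so the doses are not matched and the values below compare these 2 treatments and not the potency of the proteins. Both proteins were added on top of serum, which itself holds growth factors.

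PDGF-BB binds receptor tyrosine kinases of the PDGF receptor family, which signal through the RAS-ERK and PI3K-AKT pathways and make smooth muscle cells divide and migrate. AKT phosphorylates FOXO transcription factors and keeps them out of the nucleus. S100A4 is a small calcium-binding protein of the S100 family that is also released from cells, and RAGE (gene AGER) and TLR4 are among its proposed receptors. Receptors of that kind can activate NF-kB, a family of transcription factors that is held in the cytoplasm by IkB proteins and induces chemokines, adhesion molecules and its own inhibitors.

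Total counts in the 6 libraries lay between 22230821 and 32448438. Libraries of the same replicate number deviated together from their group means (r = 0.795 to 0.896 across genes in the 3 pairs), and those of different numbers did not (r = −0.683 to 0.083). The number was therefore kept as a block in the test, although no label ties it to an animal. Smooth muscle genes were abundant: ACTA2 (smooth muscle alpha-actin) lay at 6554 to 16340 CPM (counts scaled to a common library size) and MYH11 (smooth muscle myosin heavy chain) at 258 to 1625 CPM. Replicate 2 of both groups stood apart, with MYH11 at 258 and 380 CPM against 938 to 1625 CPM in the other 4 libraries. TAGLN, which is usually abundant in smooth muscle, had only 83 to 213 counts in these libraries. PTPRC was at 0 in all 6 libraries, as were CD3E, CD3D, CD2, CD8A, EPCAM and CDH1, which mark leukocytes, T cells and epithelium. In bulk RNA, fewer cells of a type and less RNA per cell cannot be told apart.

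Of the 12147 genes, 5350 (44.0%) differed between S100A4 and PDGF-BB. S100A4 gave the higher level in 2565 (21.1%) and PDGF-BB in 2785 (22.9%). The test was edgeR's quasi-likelihood test with replicate number as a block, with p-values adjusted by Benjamini-Hochberg over all 12147 genes and a threshold of 0.05. Most of these differences were small: the median size among the genes that passed was 0.34 on the log2 scale, with quartiles of 0.22 and 0.57. At least 2-fold differences were found in 411 genes (3.38%), 219 of them higher with S100A4 (1.80%) and 192 higher with PDGF-BB (1.58%). The sign was the same in all 3 pairs for 5278 of the 5350 genes. The 3 libraries of each protein did not overlap for 3262 of all tested genes (26.9%). Without the block, 1397 genes passed (11.5%), 588 higher with S100A4 and 809 higher with PDGF-BB, and each of the 1397 was also among the 5350 with the same sign. Against the 3 control libraries, 1333 genes (11.0%) passed with S100A4 and 6047 (49.8%) with PDGF-BB, in the fit with the block. The count of genes higher with S100A4 was 1684 without replicate 1 of every group and 1701 without replicate 3.

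Across genes, the log2 difference in 1 pair correlated with that in another at r = 0.719, 0.779 and 0.727, over 12147 genes that are not independent replicates. No library is shared between pairs. Its SD was 0.491 in pair 1, 0.459 in pair 2 and 0.482 in pair 3. In the text, a value written as 2.17 ± 0.07 is the log2 fold change of S100A4 minus PDGF-BB with its SE, so that a positive value means a higher level with S100A4. Values against control are named as such. They come from the same fit, and both proteins are set against the same 3 control libraries, so the 2 values of a gene are not independent. Counts of list members that passed with the block are to be read against the share of all tested genes, which was 44.0%. That share was 21.1% for genes higher with S100A4 and 22.9% for genes higher with PDGF-BB. List counts without the block are to be read against the smaller share of that fit. It was 11.5% of all tested genes, and 42.1% of the genes that passed there were higher with S100A4.

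**Figure D1:**
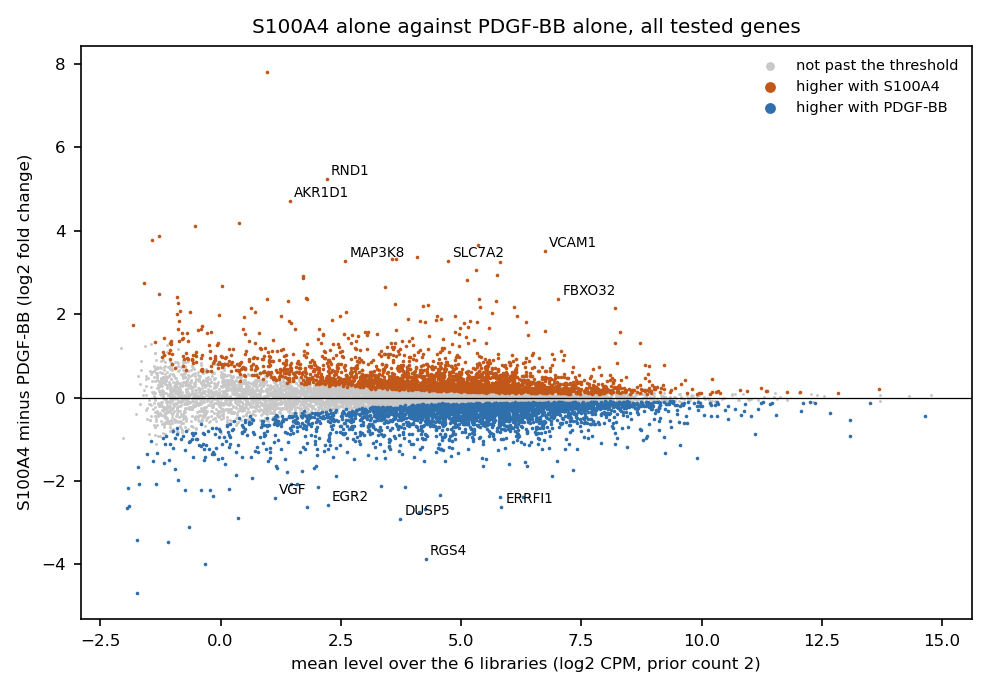
Each point is 1 of the 12147 tested genes, with its mean level over the 6 libraries (log2 CPM, horizontal) and the log2 fold change of S100A4 minus PDGF-BB (vertical); orange and blue points passed the threshold and grey points did not. RND1 (5.24) lies far up and RGS4 (−3.87) far down, while most coloured points lie close to 0.

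The NF-kB family and its feedback inhibitors were mostly higher with S100A4. Of 22 listed genes 20 were tested, and 15 were higher with S100A4 and 1 with PDGF-BB (9 and 0 without the block), with a median of 0.65 against 0.003 for all tested genes. NFKBIA encodes IkB-alpha, the inhibitor that NF-kB itself induces. It lay at 130, 161 and 147 CPM in S100A4 replicates 1 to 3 and at 32.6, 37.5 and 27.3 CPM in PDGF-BB replicates 1 to 3. The groups were far apart, and the difference was 4.51-fold (2.17 ± 0.07, adjusted p = 3.1e-10). Control libraries lay at 37.2, 43.9 and 31.6 CPM, and PDGF-BB was slightly below them (−0.21 ± 0.08 against control, adjusted p = 0.033).

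TNFAIP3, the ubiquitin-editing protein A20 that shuts NF-kB signalling down, lay at 106, 145 and 108 CPM with S100A4 and at 19.1, 33.4 and 20.2 CPM with PDGF-BB. Every S100A4 library was above every PDGF-BB library (2.32 ± 0.08, adjusted p = 3.2e-10). Unlike NFKBIA, TNFAIP3 was above control with both proteins (2.81 ± 0.09 with S100A4, and 0.49 ± 0.09 with PDGF-BB). NFKBIZ, a nuclear IkB protein, also differed (1.82 ± 0.08), with values against control of 1.30 ± 0.07 for S100A4 and −0.52 ± 0.08 for PDGF-BB. The subunit gene NFKB2 differed by 0.83 ± 0.04. The ubiquitin ligase BIRC3, in contrast, showed no difference that passed (−0.01 ± 0.06), and was above control with S100A4 (0.40) and PDGF-BB (0.41) alike. OTULIN was the member higher with PDGF-BB (−0.17 ± 0.06, adjusted p = 0.022).

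Chemokines, which draw leukocytes to tissue, had 8 tested genes of 22 listed. S100A4 gave higher levels of 7, and none was higher with PDGF-BB (median 1.77). Without CXCL10, which passed the count filter only through its S100A4 libraries, the count was 6 of 7 and the median 1.58. Without the block none of the 8 passed. CXCL8, a neutrophil chemokine, lay at 47.9, 660 and 87.6 CPM with S100A4 and at 13.5, 154 and 22.8 CPM with PDGF-BB. The groups overlapped, because replicate 2 was highest in both, but S100A4 was above PDGF-BB within each replicate number (1.96 ± 0.29, adjusted p = 9.0e-05 with the block and 0.45 without it). AMCF-II, a porcine neutrophil chemokine gene, lay at 66.3, 351 and 82.5 CPM with S100A4 and at 5.26, 54.2 and 7.15 CPM with PDGF-BB. These groups did not overlap (3.06 ± 0.22), and 1 replicate number again held the highest level of each.

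CXCL2 showed the same order of replicates (2.82 ± 0.25), and CCL19 had low levels of at most 3.05 CPM (1.35 ± 0.19). CXCL10, chosen after its values were seen, had a large fitted difference (3.78 ± 0.65) at no more than 1.87 CPM. CCL2, a monocyte chemokine chosen in the same way, was abundant and differed little, at 1185, 1846 and 1198 CPM with S100A4 and 756, 1912 and 716 CPM with PDGF-BB (0.45 ± 0.16, adjusted p = 0.037). Its replicate 2 was slightly lower with S100A4. How the authors counted reads that match several genes is not given in the sources used here, so counts of related chemokines are uncertain.

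Cytokines and their receptors were split. Of 18 tested genes, 8 were higher with S100A4 and 4 with PDGF-BB (2 and 1 without the block; median 0.13). IL1A, interleukin 1 alpha, lay at 16.8, 112 and 28.5 CPM with S100A4 and at 2.59, 9.19 and 2.90 CPM with PDGF-BB. The lowest S100A4 library was above the highest PDGF-BB library (3.34 ± 0.16, adjusted p = 4.2e-09). IL11, a cytokine of the IL6 family, went the other way, with 11.4, 89.7 and 11.9 CPM with S100A4 and 95.8, 335 and 76.6 CPM with PDGF-BB (−2.37 ± 0.21). Here the groups overlapped through S100A4 replicate 2, and the difference did not pass without the block (adjusted p = 0.22). The TWEAK receptor TNFRSF12A was also higher with PDGF-BB (−0.91 ± 0.06), and the decoy receptor TNFRSF11B (osteoprotegerin) with S100A4 (0.67 ± 0.08), where both proteins were below control (−0.30 and −0.97).

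LIF, a cytokine of the IL6 family, rose with both proteins. It lay at 21.0, 36.6 and 10.8 CPM in control, at 164, 418 and 151 CPM with S100A4 and at 199, 500 and 152 CPM with PDGF-BB. Both groups were above control, by 3.39 ± 0.15 and 3.58 ± 0.15, and overlapped each other. Their difference did not pass (−0.19 ± 0.13, 95% interval −0.46 to 0.09, adjusted p = 0.27), although it did in the fit of the 6 libraries alone. BDKRB2, the bradykinin B2 receptor, had 10.0, 19.0 and 13.8 CPM with S100A4 and 11.3, 22.0 and 14.3 CPM with PDGF-BB (−0.15 ± 0.09, 95% interval −0.35 to 0.05). Its control libraries lay at 2.09 to 4.20 CPM. The intervals of SERPINB2 (−0.86 to 0.85), RGS16 (−0.35 to 0.48), EREG (−0.42 to 0.24) and SELP (−0.72 to 0.57) were wider, and these 4 genes were also above control with each protein. For SERPINB2, an inhibitor of urokinase, the pairs disagreed, with 2.54, 102 and 1.57 CPM with S100A4 and 10.7, 63.6 and 4.22 CPM with PDGF-BB. Replicate 2 was highest in both groups and the only one with more SERPINB2 under S100A4. Without replicate 2 of every group, SERPINB2 (−1.82) and the platelet and endothelial adhesion molecule SELP (−0.54) passed as higher with PDGF-BB. A difference that misses the threshold does not show that the levels are equal.

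In the list of leukocyte adhesion molecules and matrix-bound mediators, the adhesion genes VCAM1 and ICAM1 were higher with S100A4 and the hyaluronan synthase HAS2 with PDGF-BB. Of 14 tested members, 6 were higher with S100A4 and 2 with PDGF-BB (4 and 1 without the block, median −0.01). These 57.1% compare with 44.0% of all tested genes. VCAM1, which binds integrins on monocytes and lymphocytes, lay at 227, 592 and 344 CPM with S100A4 and at 21.4, 43.4 and 34.0 CPM with PDGF-BB. The difference was 11.4-fold (3.52 ± 0.17, adjusted p = 4.0e-09). The PDGF-BB libraries lay near control (23.6, 38.3 and 28.3 CPM).

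ICAM1, another ligand of leukocyte integrins, was above control with both proteins but more so with S100A4. Its levels were 584, 791 and 633 CPM with S100A4, 269, 290 and 252 CPM with PDGF-BB and 145, 168 and 119 CPM in control. The 3 groups did not overlap, and S100A4 minus PDGF-BB was 1.30 ± 0.07 (adjusted p = 1.2e-08). HAS2, the main hyaluronan synthase of mesenchymal cells, was among the genes most raised by PDGF-BB relative to S100A4. It lay at 8.23, 21.4 and 1.87 CPM with S100A4 and at 47.1, 115 and 25.3 CPM with PDGF-BB (−2.66 ± 0.20, adjusted p = 1.9e-07, and 0.15 without the block). Levels varied widely between replicate numbers in both groups. ICAM5 was higher with PDGF-BB (−1.43 ± 0.11) at levels of 2.24 to 10.2 CPM.

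Sensors of microbial and danger signals and their adaptors had 22 tested genes of 24 listed, 9 higher with S100A4 and 5 with PDGF-BB (7 and 3 without the block; median 0.13). The 9 include TLR1, at most 0.978 CPM, which passed the count filter only through its S100A4 libraries. MAP3K8 encodes TPL2, the kinase that links NF-kB activating receptors to ERK. It lay at 16.8, 16.1 and 22.4 CPM with S100A4 and at 2.06, 1.63 and 2.03 CPM with PDGF-BB, a difference of 9.69-fold (3.28 ± 0.15). Control libraries (6.20, 3.36 and 5.43 CPM) lay between the groups, since S100A4 was above them (1.90 ± 0.13) and PDGF-BB below (−1.38 ± 0.17, adjusted p = 2.0e-05). TLR2, a receptor for bacterial lipoproteins, had 8.72, 9.97 and 7.75 CPM with S100A4 and 0.971, 1.53 and 0.966 CPM with PDGF-BB (2.93 ± 0.19).

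IRAK2, a kinase of the Toll-like receptor pathway, had the same arrangement around control (2.19 ± 0.10, with 1.59 ± 0.10 and −0.60 ± 0.11 against control). IRAK3, which restrains that pathway, differed by 1.35 ± 0.11. TLR4 lay at 3.82, 17.8 and 4.47 CPM with S100A4 and at 1.29, 7.95 and 1.61 CPM with PDGF-BB. Its groups overlapped through replicate 2, and the difference passed with the block (1.30 ± 0.27, adjusted p = 0.0014) and not without it (0.56). Here S100A4 did not pass against control (0.02 ± 0.25) and PDGF-BB was below it (−1.28 ± 0.27). AGER had 0 to 2 counts in the 6 libraries and was not tested.

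**Figure D2:**
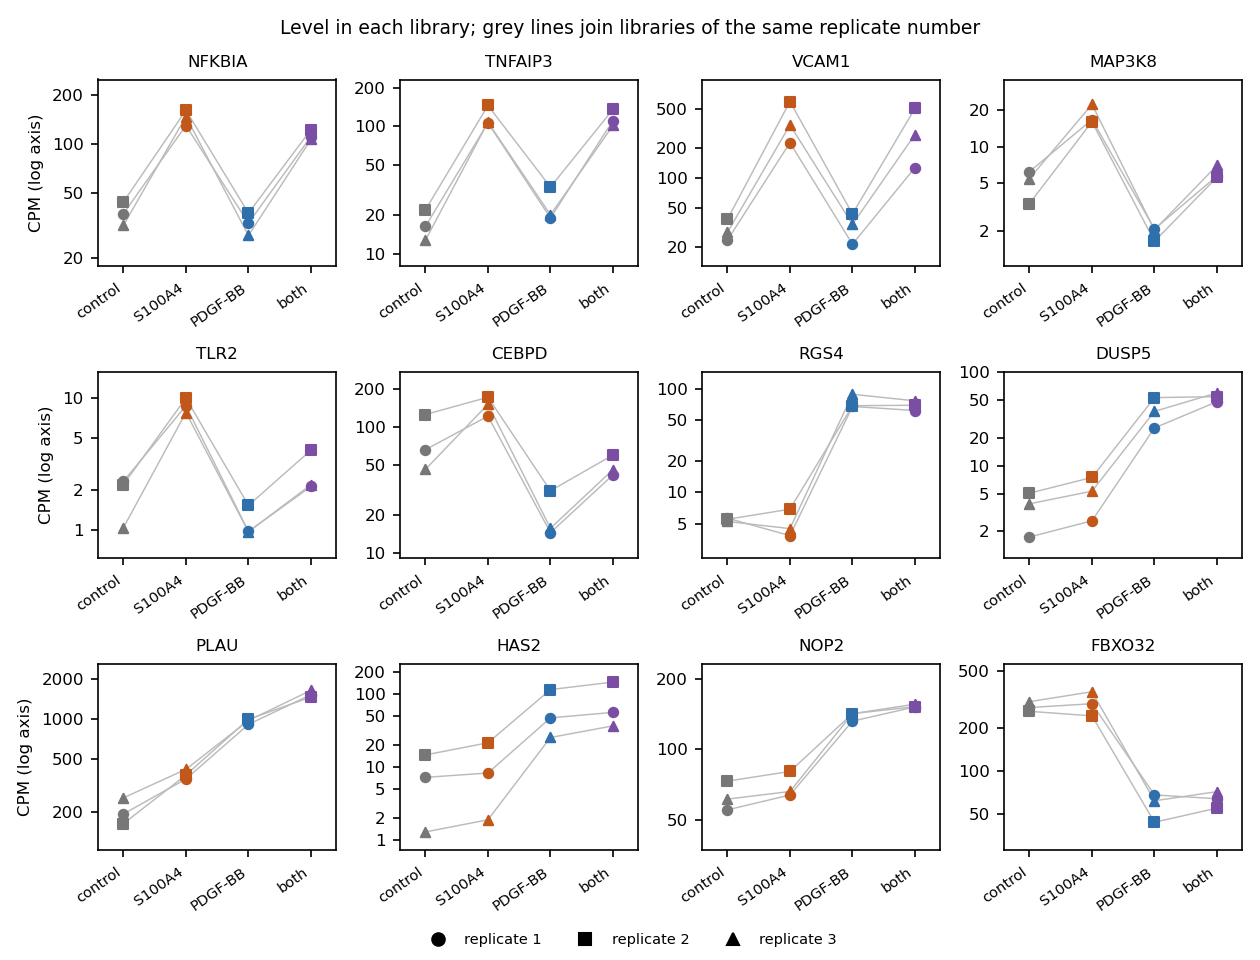
Level of 12 genes in CPM (log axis) in control, S100A4, PDGF-BB and both proteins together; circles, squares and triangles are replicates 1, 2 and 3, joined by grey lines. NFKBIA, TNFAIP3 and VCAM1 are higher with S100A4 than with PDGF-BB or in control, RGS4, DUSP5, HAS2 and NOP2 step up with PDGF-BB, and FBXO32 steps down with PDGF-BB (44.0 to 68.2 CPM against 242 to 357 CPM with S100A4).

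The list of feedback inhibitors of ERK signalling had the lowest median of the lists (−0.94). Of 22 listed genes 20 were tested, 15 of them higher with PDGF-BB and 1 with S100A4 (11 and 0 without the block). The list is not limited to inhibitors of ERK, so its count and median are not those of ERK inhibitors alone. Among its other members are CCND1, ETV4, ETV5 and IER3, which ERK induces but which do not inhibit it. DUSP5, a nuclear phosphatase that inactivates ERK, lay at 25.4, 53.5 and 38.1 CPM with PDGF-BB and at 2.58, 7.50 and 5.35 CPM with S100A4. The groups did not overlap (−2.91 ± 0.19, a 7.52-fold difference, adjusted p = 6.3e-08). ERRFI1, an inhibitor of the EGF receptor, had 142, 109 and 186 CPM with PDGF-BB and 19.0, 23.3 and 26.7 CPM with S100A4 (−2.63 ± 0.16). It was above control with S100A4 as well (0.64 ± 0.19, adjusted p = 0.043).

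SPRED1 (−0.92 ± 0.05), which blocks RAF activation, and the cyclin CCND1 (−1.12 ± 0.05) were higher with PDGF-BB too. CCND1 lay at 420, 469 and 409 CPM with PDGF-BB, 186, 209 and 201 CPM with S100A4 and 204, 240 and 245 CPM in control. S100A4 was thus slightly below control (−0.21 ± 0.05, adjusted p = 0.016), whereas PDGF-BB was above it (0.91 ± 0.05). The member higher with S100A4 was IER3 (0.71 ± 0.10), an early response gene that NF-kB can also induce and that was above control with S100A4 (1.64) and with PDGF-BB (0.92).

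Immediate early transcription factors, which cells switch on within minutes to hours of a stimulus, were more often higher with PDGF-BB. Of 22 tested, 13 were higher with PDGF-BB and 6 with S100A4 (9 and 2 without the block, median −0.64). Without EGR3 the counts were 12 and 6 of 21 and the median was −0.62. EGR2, a zinc finger factor, lay at 9.10, 19.3 and 8.24 CPM with PDGF-BB and at 1.29, 3.21 and 1.53 CPM with S100A4 (−2.57 ± 0.28, adjusted p = 5.5e-06). EGR1 (−1.74 ± 0.24) and MYC (−0.86 ± 0.08), chosen after their values were seen, were also higher with PDGF-BB, as were KLF10 (−0.70 ± 0.05) and MAFF (−0.67 ± 0.06). EGR3 had 2.97 to 3.06 CPM with PDGF-BB and at most 0.309 CPM with S100A4, and passed the count filter through the PDGF-BB libraries only. MAFF was above control with both proteins (1.08 ± 0.07 and 1.75 ± 0.07). NAB1 (0.89 ± 0.05), a corepressor of EGR factors, and the AP-1 member FOSL2 (0.57 ± 0.05) were higher with S100A4. FOSL2 was below control with both, by −0.30 ± 0.05 for S100A4 and −0.87 ± 0.05 for PDGF-BB.

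Growth factors and EGF family ligands had 24 tested genes, 11 higher with PDGF-BB and 7 with S100A4 (1 and 1 without the block; median −0.21). The EGF receptor ligand AREG lay at 155, 536 and 145 CPM with PDGF-BB and at 37.7, 172 and 35.0 CPM with S100A4 (−1.88 ± 0.12). The groups overlapped because replicate 2 was highest in each, and the adjusted p was 4.0e-08 with the block and 0.25 without it. HBEGF, another EGF receptor ligand, differed by −1.19 ± 0.12 and was above control with both proteins. PTHLH, parathyroid hormone-like hormone, which relaxes vascular smooth muscle, went the other way, with 26.1, 42.5 and 44.0 CPM with S100A4 and 11.7, 16.3 and 21.6 CPM with PDGF-BB (1.19 ± 0.07). All 3 S100A4 libraries were above the 3 PDGF-BB libraries, and both groups were above control. GDF15, a stress-induced cytokine, was higher with PDGF-BB (−0.68 ± 0.07).

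Genes for making ribosomes were higher with PDGF-BB almost without exception. Of 31 tested, 30 were higher with PDGF-BB and 0 with S100A4 (23 and 0 without the block), against 22.9% of all tested genes in that direction, and the median was −0.57. NOP2, an rRNA methyltransferase of the nucleolus, lay at 132, 142 and 142 CPM with PDGF-BB, 63.6, 80.2 and 65.9 CPM with S100A4 and 55.0, 73.0 and 61.1 CPM in control. The level with S100A4 was near that of control (0.15 ± 0.07, adjusted p = 0.21), and S100A4 minus PDGF-BB was −0.99 ± 0.07. NIP7 (−1.03 ± 0.07), UTP4 (−0.70 ± 0.05) and TSR1 (−0.76 ± 0.05), factors of pre-ribosome assembly, were also higher with PDGF-BB. NOP56, with only 12 to 23 counts in these libraries, was the member that did not pass (0.05 ± 0.34).

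The cytosolic chaperonin, which folds actin and tubulin, had 7 tested subunits, and all 7 were higher with PDGF-BB by small amounts (median −0.28; 3 without the block). CCT5 had the largest of these differences (−0.40 ± 0.04), at 290, 318 and 270 CPM with PDGF-BB and 212, 245 and 207 CPM with S100A4. Genes of tRNA charging and amino acid stress went both ways, with 11 of 26 higher with S100A4 and 4 with PDGF-BB (1 and 1 without the block, median 0.09). The share of this list that passed was 57.7%, against 44.0% of all tested genes. DDIT4 (0.62 ± 0.06), an inhibitor of mTORC1, and TRIB3 (0.62 ± 0.08) were higher with S100A4, while the leucine transporter subunit SLC7A5 was higher with PDGF-BB (−0.48 ± 0.08).

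Genes linked to FOXO factors and growth arrest were mostly higher with S100A4, and the PDGF-BB libraries were the ones further from control. Of 25 tested, 18 were higher with S100A4 and 2 with PDGF-BB (12 and 0 without the block), with a median of 0.76. The medians against control were −0.19 for S100A4 and −0.84 for PDGF-BB. The 2 members higher with PDGF-BB were IRS1 (−0.20) and CITED2 (−0.24). FBXO32, a ubiquitin ligase of muscle atrophy, lay at 295, 242 and 357 CPM with S100A4, at 68.2, 44.0 and 62.1 CPM with PDGF-BB and at 277, 261 and 304 CPM in control. S100A4 did not differ from control in the test (0.07 ± 0.08), and S100A4 minus PDGF-BB was 2.36 ± 0.08 (5.13-fold, adjusted p = 3.1e-10).

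BMF, a pro-apoptotic BCL2 family member, had 30.6, 20.9 and 29.8 CPM with S100A4 and 6.15, 4.99 and 5.89 CPM with PDGF-BB (2.25 ± 0.11). It was slightly below control with S100A4 too (−0.35 ± 0.09, adjusted p = 0.023). KLHL24 (1.89 ± 0.10) and YPEL3 (1.22 ± 0.09) differed in the same direction. The cell cycle inhibitor CDKN1B, chosen after its values were seen, lay at 52.6, 43.1 and 47.0 CPM with S100A4 and at 21.4, 21.2 and 18.0 CPM with PDGF-BB (1.23 ± 0.10). Its S100A4 libraries were in turn below control (−0.36 ± 0.09).

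**Figure D3:**
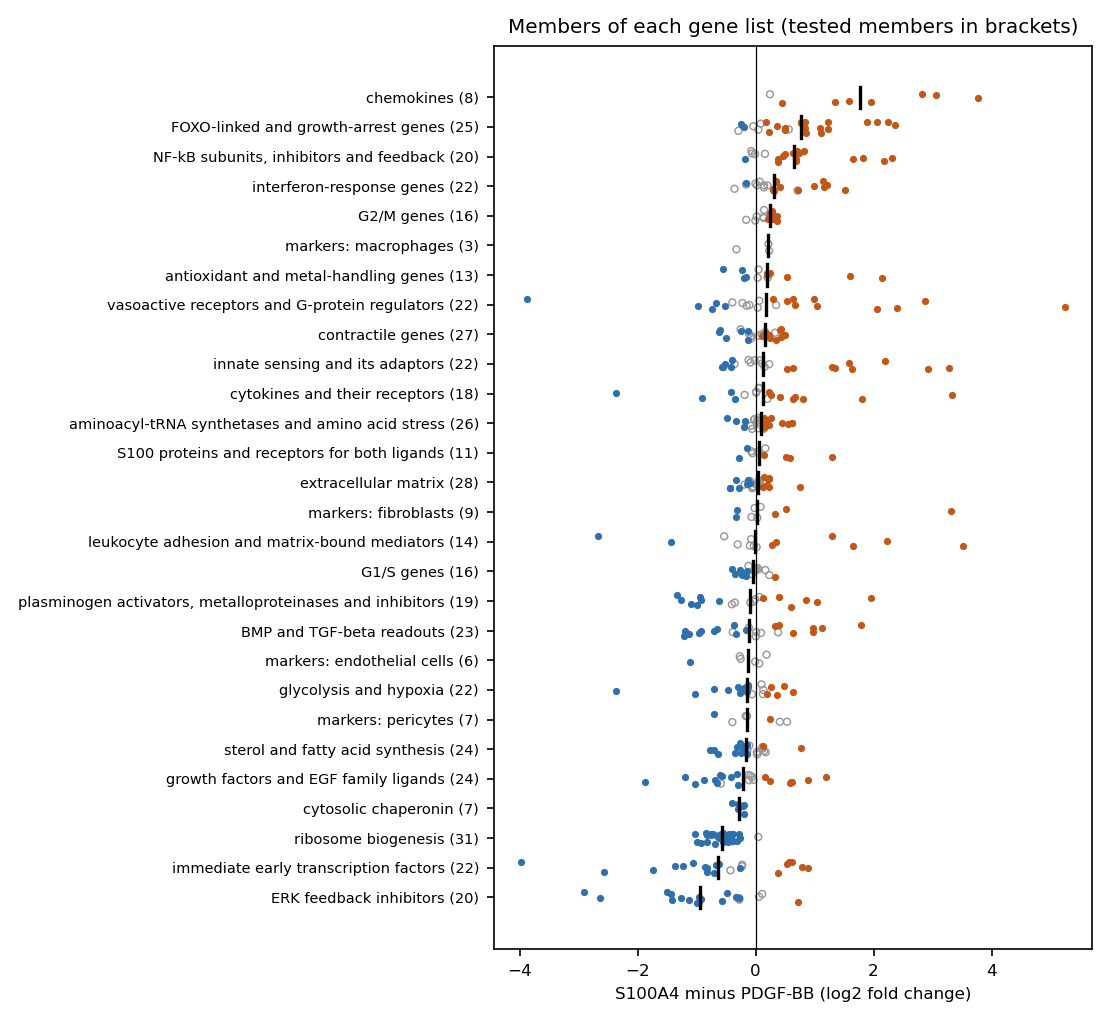
Log2 fold change of S100A4 minus PDGF-BB for the tested members of each list with at least 3 of them, ordered by list median (black bar); filled orange and blue points passed the threshold and open points did not. Chemokines (median 1.77), FOXO-linked genes (0.76) and NF-kB genes (0.65) lie furthest right, and ERK feedback inhibitors (−0.94), immediate early factors (−0.64) and ribosome biogenesis (−0.57) furthest left. CXCL10 and EGR3 passed the count filter through 1 group only. Without them the chemokine median was 1.58 and that of immediate early factors −0.62.

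Of the BMP and TGF-beta readouts, 10 of 23 were higher with PDGF-BB and 7 with S100A4 (3 and 4 without the block; median −0.11). The inhibitory SMAD6 (1.13 ± 0.09) and ID2 (0.97 ± 0.08), both targets of BMP signalling, were higher with S100A4, ID2 with no pass without the block (adjusted p = 0.11). SMAD6 lay at 43.6, 29.8 and 36.1 CPM with S100A4, at 14.6 to 18.8 CPM with PDGF-BB and at 60.3, 37.6 and 50.5 CPM in control. Both proteins were thus below control, PDGF-BB by more (−0.43 ± 0.08 and −1.57 ± 0.08). The BMP antagonist GREM1 (−1.20 ± 0.08) and TGFB3 (−0.96 ± 0.07) were higher with PDGF-BB, with overlapping groups and no pass without the block.

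Extracellular proteases and their inhibitors went both ways. In the list of activators, metalloproteinases and inhibitors, 7 of 19 were higher with PDGF-BB and 6 with S100A4 (4 and 4 without the block; median −0.09). PLAU, urokinase, lay at 915, 998 and 979 CPM with PDGF-BB, 356, 381 and 420 CPM with S100A4 and 194, 164 and 257 CPM in control. Each of the 3 groups was apart from the others, and S100A4 minus PDGF-BB was −1.33 ± 0.09 (adjusted p = 6.3e-08). Its receptor PLAUR (−1.09 ± 0.07) and the inhibitor SERPINE2 (−0.93 ± 0.04) followed the same direction. ADAMTS9 (0.85 ± 0.05), a proteoglycan-cleaving protease, was near control with S100A4 (0.05 ± 0.05) and below it with PDGF-BB (−0.80 ± 0.05).

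Small GTPases, G-protein regulators and receptors for vasoactive signals held the largest difference in each direction among genes with a symbol and a mean of at least 1 log2 CPM. Of 22 tested, 10 were higher with S100A4 and 5 with PDGF-BB (4 and 1 without the block; median 0.18). RND1 (ENSSSCG00000038562, chromosome 5, 14914652 to 14922032 in the Sscrofa11.1 annotation of RefSeq) encodes a small GTPase that loosens actin structure. It lay at 16.1, 40.1 and 29.6 CPM with S100A4 and at 0.526, 1.04 and 0.676 CPM with PDGF-BB. The difference was 37.8-fold (5.24 ± 0.14, adjusted p = 8.1e-11), with control near the PDGF-BB level (0.849 to 1.25 CPM). RGS4 (ENSSSCG00000006335, chromosome 4, 87383336 to 87390478), which ends signalling of Gq- and Gi-coupled receptors, had the largest such difference on the PDGF-BB side. It lay at 67.2, 68.4 and 88.2 CPM with PDGF-BB and at 3.82, 6.88 and 4.47 CPM with S100A4 (−3.87 ± 0.13, 14.7-fold).

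Control libraries of RGS4 lay between 5.24 and 5.63 CPM, near the S100A4 libraries and far from those of PDGF-BB. GHSR, the ghrelin receptor, was higher with S100A4 (2.87 ± 0.17) at 9.16, 5.87 and 11.8 CPM, against 1.38, 0.717 and 1.58 CPM with PDGF-BB. Here again it was PDGF-BB that differed from control (−3.17 ± 0.17), while S100A4 did not pass (−0.30 ± 0.12). The prostaglandin E synthase PTGES (0.99 ± 0.09) was higher with S100A4, and was above control with S100A4 (0.99 ± 0.09) and not with PDGF-BB (0.01 ± 0.09). ADORA2A, an adenosine receptor that raises cyclic AMP, was higher with S100A4 as well (2.39 ± 0.23), at 5.87 to 10.2 CPM.

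Other genes with large differences towards S100A4 came from several functions. AKR1D1, a steroid reductase, had 8.01, 19.6 and 12.4 CPM with S100A4 and at most 0.612 CPM with PDGF-BB (4.70 ± 0.24, 26.1-fold). PDPN, podoplanin, a surface glycoprotein often used as a fibroblast marker, lay at 60.1, 14.3 and 53.6 CPM with S100A4 and at 4.82, 2.25 and 5.18 CPM with PDGF-BB (3.32 ± 0.12). It was the only one of 9 tested fibroblast markers with a difference over 2-fold. The cationic amino acid transporter SLC7A2, which supplies arginine, differed by 3.28 ± 0.22. An identifier without a symbol, ENSSSCG00000016254, had 14.1, 24.7 and 32.1 CPM with S100A4 and 0.243, 0.0652 and 0.0322 CPM with PDGF-BB. It passed the count filter only through its S100A4 libraries, so its fitted difference (7.82 ± 0.34) is a description. A second, ENSSSCG00000024759, had 56.7, 442 and 120 CPM with S100A4 and 4.49, 37.9 and 8.60 CPM with PDGF-BB (3.67 ± 0.11). It did not pass without the block (adjusted p = 0.11).

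On the PDGF-BB side, SEMA7A, a membrane-anchored semaphorin, differed by −2.75 ± 0.16 and ITGA2, the collagen-binding integrin alpha 2 subunit, by −2.62 ± 0.14. ITGA2 lay at 5.87, 9.19 and 11.2 CPM with PDGF-BB and at 0.889, 1.51 and 1.83 CPM with S100A4. All PDGF-BB libraries were above all S100A4 libraries for both genes, which the rule for naming them required. VGF, a secreted neuropeptide precursor, differed by −2.41 ± 0.17, the thyroid hormone and organic anion transporter SLCO4A1 by −2.34 ± 0.24, EVA1A by −2.15 ± 0.13 and SH2D5 by −2.11 ± 0.15. The ubiquitin ligase TRIM9 (−2.15 ± 0.19), the small GTPase DIRAS3 (−2.08 ± 0.17) and the thyroid hormone deiodinase DIO2 (−2.07 ± 0.34) completed the 15 largest. Without the block DIO2 and SH2D5 did not pass (adjusted p = 0.12 and 0.053). Of these 15 genes TRIM9 was below control with S100A4 (−0.73 ± 0.22, adjusted p = 0.048) and above it with PDGF-BB (1.42 ± 0.17).

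A set of genes lay on opposite sides of control with the 2 proteins. The 8 with the largest difference between the proteins were SLC7A2, MAP3K8, CEBPD, TLR2, SPIDR, RNF144B, IRAK2 and STX11, each above control with S100A4 and below it with PDGF-BB. CEBPD, a C/EBP transcription factor of acute inflammation, lay at 123, 173 and 152 CPM with S100A4, 66.2, 126 and 46.2 CPM in control and 14.5, 31.2 and 15.7 CPM with PDGF-BB. Against control it was 0.99 ± 0.16 higher with S100A4 (adjusted p = 0.0013), and the value for PDGF-BB was −1.94 ± 0.18 (adjusted p = 1.3e-06). SPIDR had 0.78 ± 0.13 and −1.58 ± 0.15, RNF144B 1.02 ± 0.20 and −1.30 ± 0.25, and STX11, a syntaxin of granule release, 1.34 ± 0.09 and −0.83 ± 0.10. This list was chosen for opposite signs, so its directions are a description.

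**Figure D4:**
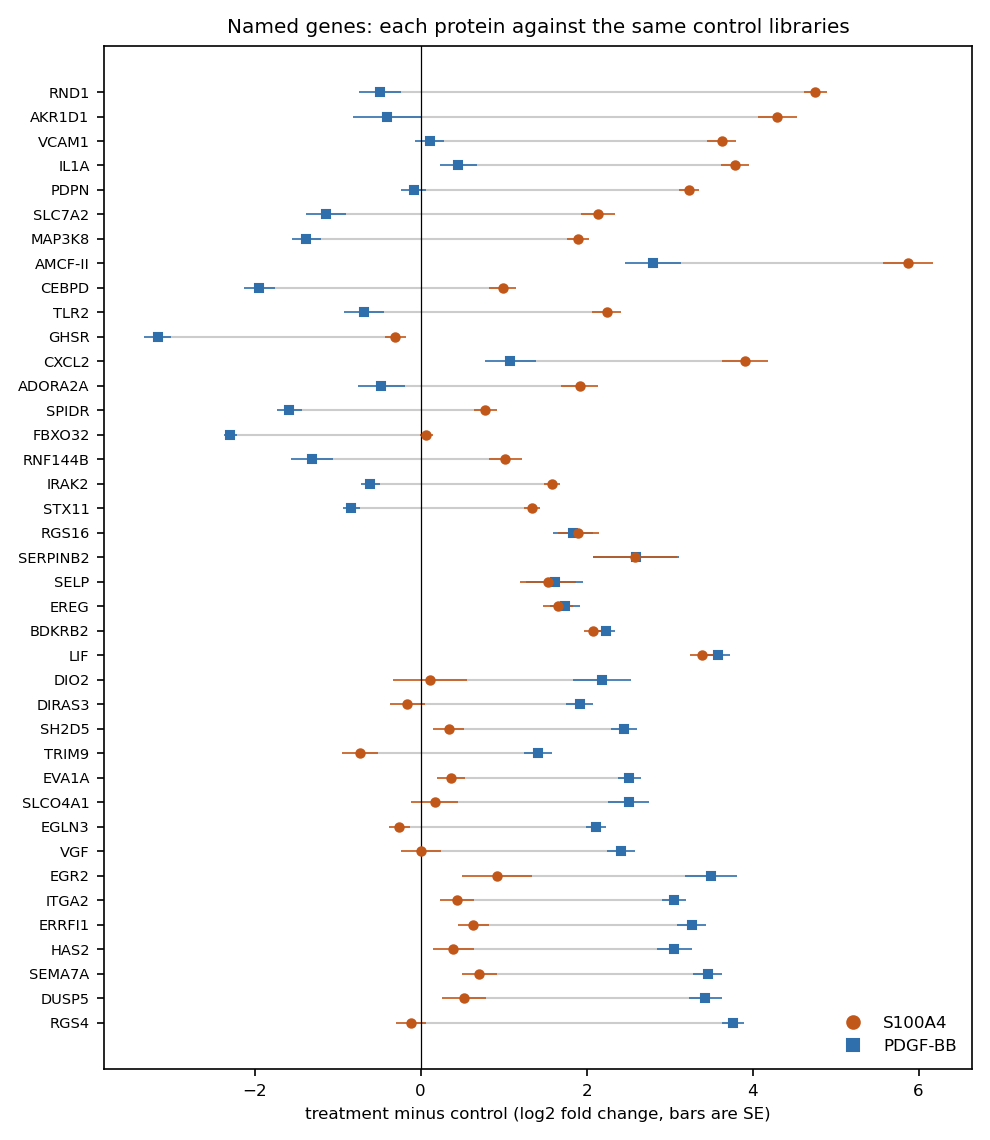
Log2 fold change of S100A4 (orange circles) and of PDGF-BB (blue squares) minus the same 3 control libraries for the genes with the largest differences between the proteins, those on opposite sides of control and those raised by both; bars are SE. For RND1 and VCAM1 the S100A4 value lies far from 0 (4.76 and 3.63), for FBXO32 and GHSR the PDGF-BB value (−2.29 and −3.17), and for LIF both (3.39 and 3.58).

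Contractile genes showed small differences in both directions, more of them higher with S100A4. Of 27 tested, 13 were higher with S100A4 and 6 with PDGF-BB, and 1 in each direction passed without the block (median 0.16). The share that passed was 70.4%, against 44.0% of all tested genes (21.1% higher with S100A4 and 22.9% with PDGF-BB). MYH11 lay at 1312, 380 and 1625 CPM with S100A4 and at 938, 258 and 1349 CPM with PDGF-BB. Replicate 2 was low in both groups, which overlapped, and S100A4 was higher within each replicate number (0.43 ± 0.07, adjusted p = 0.00026 with the block and 0.87 without it). SMTN, smoothelin, differed by 0.24 ± 0.05, and was below control with both S100A4 (−0.45 ± 0.05) and PDGF-BB (−0.69 ± 0.05). SRF, the transcription factor that drives contractile and early growth genes, was higher with PDGF-BB (−0.62 ± 0.06), as were the focal adhesion protein VCL (−0.50 ± 0.05) and the intermediate filament DES (−0.61 ± 0.08). The SRF coactivator MRTFB was higher with S100A4 (0.49 ± 0.05). ACTA2 was just past the threshold (−0.13 ± 0.05, adjusted p = 0.049) and not past it with other scalings, while CNN1 (−0.11 ± 0.05) and TAGLN (−0.25 ± 0.13) did not pass.

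Matrix genes were mixed, with 8 of 28 higher with S100A4 and 7 with PDGF-BB (1 and 0 without the block; median 0.04). The 53.6% that passed is near the 44.0% of all tested genes. With upper-quartile scaling 13 were higher with S100A4. The laminin chain LAMA4 was higher with S100A4 (0.75 ± 0.05), where S100A4 was above control and PDGF-BB below it (0.39 ± 0.05 and −0.36 ± 0.05). COL6A3 was higher with PDGF-BB (−0.44 ± 0.04) and COL3A1 with S100A4 (0.20 ± 0.03). Sterol and fatty acid synthesis genes were more often higher with PDGF-BB (13 of 24, and 2 with S100A4; 3 and 1 without the block; median −0.16). FASN, fatty acid synthase, lay at 503, 633 and 553 CPM with PDGF-BB and at 271, 414 and 317 CPM with S100A4 (−0.77 ± 0.06). INSIG1 (0.78 ± 0.06), which restrains sterol synthesis, was higher with S100A4.

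In the glycolysis and hypoxia list, 13 of 22 were higher with PDGF-BB and 5 with S100A4 (2 and 1 without the block; median −0.14). EGLN3, an oxygen-sensing prolyl hydroxylase, lay at 167, 130 and 253 CPM with PDGF-BB and at 26.4, 34.7 and 43.3 CPM with S100A4 (−2.37 ± 0.12). LDHA (−0.30 ± 0.04) and GAPDH (−0.27 ± 0.03) had small differences with overlapping groups, and NDRG1 was higher with S100A4 (0.48 ± 0.06). Among antioxidant and metal-handling genes, 6 of 13 were higher with S100A4 and 4 with PDGF-BB (3 and 0 without the block; median 0.19). SOD2, the mitochondrial superoxide dismutase and an NF-kB target, lay at 508, 817 and 563 CPM with S100A4 and at 125, 161 and 135 CPM with PDGF-BB (2.14 ± 0.09, 4.41-fold). The iron exporter SLC40A1 was higher with S100A4 (1.61 ± 0.14), with both proteins below control (−0.48 ± 0.13 and −2.09 ± 0.14).

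Interferon-response genes were higher with S100A4 in 12 of 22 and with PDGF-BB in 1 (2 and 0 without the block, median 0.31). These 59.1% compare with 44.0% of all tested genes. The list medians against control were −0.06 for S100A4 and −0.42 for PDGF-BB, so the PDGF-BB libraries were the ones further from control. IRF1, a transcription factor induced by interferon and by NF-kB, lay at 49.9, 54.6 and 53.6 CPM with S100A4, 33.4, 32.3 and 30.2 CPM in control and 19.7, 21.8 and 14.1 CPM with PDGF-BB (1.52 ± 0.10). IFIH1 (1.20 ± 0.11), a sensor of viral RNA, and the GTPase GBP1 (1.15 ± 0.12) were also higher with S100A4. For GBP1 the value with S100A4 did not pass against control (0.20 ± 0.11) and PDGF-BB was below control (−0.95 ± 0.12).

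Cell cycle genes differed little at this time. Of 16 tested G2/M genes, 10 were higher with S100A4 and 0 with PDGF-BB (0 and 0 without the block), with a median of 0.24 and CENPF at 0.36 ± 0.07. Against control, the G2/M medians were −0.02 for S100A4 and −0.27 for PDGF-BB. Of 16 G1/S genes, 6 were higher with PDGF-BB and 1 with S100A4 (0 and 0 without the block), among them CCNE1 (−0.40 ± 0.10), the cyclin of S phase entry. The groups overlapped for all tested G1/S and G2/M genes, whereas they did not for 26.9% of all tested genes. Levels could differ widely between replicate numbers. CENPF lay at 90.2, 122 and 18.9 CPM with S100A4 and at 60.0, 111 and 14.5 CPM with PDGF-BB, higher with S100A4 within each number. The share of all tested genes that passed was 44.0%, against 43.8% of G1/S and 62.5% of G2/M genes.

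For the S100 proteins and receptors of both ligands, 4 of 11 tested genes were higher with S100A4 and 2 with PDGF-BB (0 and 1 without the block). These 54.5% compare with 44.0% of all tested genes. The S100A4 transcript itself lay at 97.3, 124 and 68.0 CPM with added S100A4 protein and at 77.6, 124 and 59.5 CPM with PDGF-BB. Its difference of 0.17 ± 0.06 just missed the threshold (adjusted p = 0.0503) and passed with DESeq2 and with RLE or upper-quartile scaling. PDGFRB, the main PDGF-BB receptor of smooth muscle, did not pass (−0.05 ± 0.04, 95% interval −0.13 to 0.03). PDGFRA was higher with S100A4 within each replicate number (0.52 ± 0.09, adjusted p = 0.00042, and 0.90 without the block), at 37.9, 164 and 12.5 CPM against 25.7, 113 and 9.12 CPM. Its replicate 2 libraries stood far above the others in both groups. S100A10 was slightly higher with PDGF-BB (−0.29 ± 0.06).

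Summed markers of endothelial cells, fibroblasts, pericytes, macrophages and cardiomyocytes overlapped between the groups. Those of Schwann cells (0.541 to 0.578 CPM with S100A4, 0.647 to 1.10 CPM with PDGF-BB) did not. Within every replicate number, the endothelial and pericyte sums were lower with S100A4. The fibroblast, macrophage and cardiomyocyte sums were higher with S100A4 within every number, with macrophages nearly equal in replicate 2 (9.85 and 9.81 CPM). Summed endothelial markers (9 genes in the table) lay at 60.4 to 153 CPM with S100A4 and at 122 to 223 CPM with PDGF-BB. Most of that gap was ERG, an endothelial transcription factor, at 38.9, 78.1 and 51.5 CPM with S100A4 and 101, 142 and 111 CPM with PDGF-BB (−1.10 ± 0.11), and the 5 other tested endothelial markers did not pass. Fibroblast markers (9 genes) summed to 1321 to 1742 CPM with S100A4 and 1099 to 1496 CPM with PDGF-BB, and pericyte markers (8 genes) to 331 to 1553 CPM and 442 to 1968 CPM. Members of both sums went both ways. Of 9 tested fibroblast markers, 3 were higher with S100A4, such as COL14A1 (0.33 ± 0.04), and 2 with PDGF-BB, such as DPT (−0.32 ± 0.09). The pericyte marker CSPG4 lay at 717, 228 and 862 CPM with S100A4 and 1246, 350 and 1379 CPM with PDGF-BB (−0.70 ± 0.07). NOTCH3 was higher with S100A4 (0.25 ± 0.05), and the 5 other tested pericyte markers did not pass. Macrophage markers (9 genes) summed to 9.13 to 11.1 CPM and 7.54 to 9.81 CPM. Their part in the differences above was not tested.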

How the data were processed

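Gene expression was measured by RNA sequencing (single-end reads of 100 nt per the labels' protocols). The authors deposited raw counts of reads for each gene in 12 libraries. Per the submitters' processing notes the tools were CASAVA 1.8.2, STAR 2.4 and featureCounts 1.4.6, with build Sscrofa11.1. Which annotation and strand setting were used, and how multi-mapping reads were counted, is not given in the sources used here, so overlapping genes, antisense partners and near-identical copies are uncertain. A symbol was found for 10607 of the 12147 genes tested. No sequence was used.

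Counts were scaled by TMM and fitted in edgeR 4.0.16 (R 4.3.3) on all 12 libraries with group and replicate number as terms, leaving 6 residual degrees of freedom. Tests were two-sided. SE is the log2 fold change divided by the root of the F statistic. CPM are TMM-scaled, and log2 CPM used a prior count of 2. At the lowest depth 1 CPM stands for about 22.2 counts. Of the genes kept, 16 had 10 counts only in the S100A4 libraries (all 3) and 25 only in the PDGF-BB libraries, so most of these had to differ.

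Replicate numbers come from the labels, which do not tie them to animals. With the block, the p-values cover only the variation among the deposited libraries that is left after replicate number is fitted, which may be technical. The spread between replicate numbers enters the error only in the fit without the block. No library was a repeat of another: chi-square per gene within groups was 26.4 to 162. The common coefficient of variation was 5.13% with the block.

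Genes named for size had a symbol, at least 1 log2 CPM on average, no overlap between groups and the same sign in all pairs (the 15 largest in each direction). To these were added the best-ranked members of every list by adjusted p (at most 4), 8 genes on opposite sides of control, 6 list members raised by both proteins and 10 fixed genes. BIRC3, CCL2, CDKN1B, CITED2, CXCL10, EGR1, EGR3, ETV4, ETV5, ICAM4, IER3, IRS1, MYC, NOP56 and OTULIN fall outside this rule and were chosen after their values were seen. The members and lists were chosen with earlier results of these data known. Alternatives were no block, the 6 libraries alone, DESeq2 1.42.0, voom of limma 3.58.1, RLE and upper-quartile scaling, no filter, a filter at 50 counts, and leaving out libraries.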

Additional observations from a re-analysis of the deposited data

How the results depend on the processing

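The counts of genes kept within 1.5 times of 5350, 2565, 2785 and 411 with DESeq2, voom, scaling by RLE or by upper quartiles, without a filter, with the filter at 50 counts and with the 6 libraries alone. Without the replicate block they were 1397 (588 higher with S100A4 and 809 with PDGF-BB) and 225 for at least 2-fold, where the spread between replicate numbers enters the error. When a replicate number was left out of every group, the count that differed was 3620 to 5057, that higher with S100A4 1684 to 2313, that higher with PDGF-BB 1936 to 2744 and that of at least 2-fold 382 to 455. When a single library was left out they were 4281 to 4789, 2020 to 2411, 2261 to 2521 and 393 to 450. The share of calls higher with S100A4 was 50.1% with DESeq2, 42.1% without the block and 54.3% with upper-quartile scaling, which moved the median gene by 0.03. Of the named genes, 52 lost the call without the block. Differences that had not passed changed sign for SERPINB2 (0.43 without the block, 0.23 with voom, 0.00696 with RLE and 0.0221 with upper-quartile scaling), for SELP (0.0498 without the block and 0.0027 with voom) and, with libraries left out, for SERPINB2 (−1.93 to 0.37), SELP (−0.902 to 0.21) and RGS16 (−0.0928 to 0.117). SERPINB2, SELP and EREG were far higher in replicate 2 than in the others. DESeq2 gave no adjusted p for 236 genes. Genes under about 1 CPM had few counts, and their fold changes are imprecise.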

Other observations

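Several genes of this comparison are neighbours in the Sscrofa11.1 annotation of RefSeq, by symbol. On chromosome 8, CXCL8 (69932646 to 69935861), AMCF-II (70008225 to 70010360), CXCL2 (70157253 to 70159145), EREG (70351316 to 70372530) and AREG (70417935 to 70428106) lie within 495 kb. The chemokine genes CXCL8, AMCF-II and CXCL2 were higher with S100A4 (1.96, 3.06 and 2.82 on the log2 scale), EREG did not pass (−0.09) and AREG was higher with PDGF-BB (−1.88). All 5 had their highest level in replicate 2, with either protein. On chromosome 4, CEBPD ends 455 bases before SPIDR starts, and their differences were 2.93 and 2.36. On chromosome 2, ICAM1 ends 887 bases before ICAM4, and their differences were 1.30 and 1.65. Strand use in counting is not given, so it was not tested whether reads of one neighbour were counted in the other.

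Cells given both proteins were not part of the comparison, and their levels are given as values. RND1 lay at 5.26, 11.0 and 8.27 CPM with both, below each S100A4 library and above each PDGF-BB library, and so did AKR1D1 (1.48, 6.84 and 2.89 CPM). MAP3K8 lay at 5.70, 5.57 and 6.98 CPM and CEBPD at 41.7, 60.1 and 46.0 CPM, also between the groups. TNFAIP3 (111, 136 and 101 CPM) and IL1A (16.9, 109 and 33.1 CPM) were in the range of the S100A4 libraries or close to it. RGS4 (61.5, 69.1 and 76.2 CPM) and FBXO32 (64.2, 55.2 and 71.9 CPM) were in or close to the range of the PDGF-BB libraries. LIF lay at 821 to 1546 CPM, above every library of either protein alone.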
